A study of Mus musculus with 8 samples.

Results

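The adipocyte markers described here are 10 genes that fat cells use to store lipid and to signal: Adipoq, Fabp4, Plin1, Plin4, Cidec, Pck1, Cfd, Retn, Lep and Car3. They were chosen by name, with earlier results of these data known. Of the 10, 7 had a row among the 13677 genes of the table, and Adipoq, Retn and Lep were not analysed here. The series measured poly(A) RNA of ventricular heart tissue in 8 mouse libraries, 3 labelled C, 2 labelled KO (numbers 1 and 3) and 3 labelled DKO. The study's title sets ventricles lacking Vhl against wild-type ones in the Wt1-Cre model, where Cre acts in cells that express Wt1, such as those of the epicardium on the heart's surface. The product of Vhl helps to mark hypoxia-inducible factors for degradation. The labels give no age, sex or strain, do not spell out C, KO and DKO or the second change in DKO, and state that no treatment was applied. All groups share the tissue. Nothing in the labels says that libraries of a group came from separate animals, so p-values measure the spread between these libraries, which may be technical.

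White adipocytes keep triglyceride in a lipid droplet that perilipin 1 and CIDEC enclose and enlarge, and they secrete hormones and enzymes such as adiponectin, leptin and adipsin. The transcription factor PPAR gamma, with its partner RXR and with C/EBP factors, is known to switch on these genes when adipocytes form. Fat cells of the heart lie mainly in the epicardial and pericardial fat at its surface, while the muscle wall holds few. Several of the markers have other known sources in or near the heart: Fabp4 in capillary endothelium, Plin4 in striated muscle, Car3 in skeletal muscle and Pck1 in liver and kidney.

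The level of a gene is its deposited signal, equal to its reads plus 0.5 divided by the library's effective size and scaled to 1000000. Means are followed by the SD over libraries, with n = 3 for C, 2 for KO and 3 for DKO. Reads per library summed to between 15028176 and 21202385, and 1 read equals a signal of 0.0347 to 0.0944. The library DKO 2 stood apart, with 41.6% of its reads from the mitochondrial genome against 16.2% to 29.9% in the other 7. The KO libraries had the lowest mitochondrial shares, 16.2% and 17.4%, against 22.9% or more in C and DKO. Their 10 most abundant genes took 22.3% and 21.96% of reads, against 31.2% or more, and their scaling factors were 1.37 and 1.36, against 0.705 to 1.06. The part of this difference in RNA composition in the values of KO below was not tested. Vhl had signals of 8.97, 7.504 and 7.26 in C, 8.33 and 8.96 in KO, and 11.2, 10.9 and 8.61 in DKO, and the difference of KO from C was 0.12 (SE 0.18; limma, adjusted p = 0.71). Neither KO nor DKO thus had less Vhl than C, so the gene gives no check of those labels; C, KO and DKO name libraries by their labels throughout. The labelled tissue was checked against its markers, and heart muscle genes were abundant: the 12 cardiomyocyte genes listed summed to a signal of 68366 to 71714 in C, 43123 to 47607 in KO and 41731 to 68873 in DKO.

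The promoters of the 4 low-level markers with a RefSeq entry are shown because they share low levels in KO while their matches to adipogenic motifs differ. Each line holds the 250 bases before the RefSeq start (GRCm38.p6), 5′ to 3′ on the gene's strand, and capitals mark matches to TTGCNNAA, a C/EBP motif, on either strand. Plin1 lies at chr7:79732777-79733026 on the minus strand, Cidec at chr6:113435761-113436010 (start 1) and chr6:113434765-113435014 (start 2) on the minus strand, Pck1 at chr2:173152823-173153072 on the plus strand and Cfd at chr10:79890603-79890852 on the plus strand.
Plin1: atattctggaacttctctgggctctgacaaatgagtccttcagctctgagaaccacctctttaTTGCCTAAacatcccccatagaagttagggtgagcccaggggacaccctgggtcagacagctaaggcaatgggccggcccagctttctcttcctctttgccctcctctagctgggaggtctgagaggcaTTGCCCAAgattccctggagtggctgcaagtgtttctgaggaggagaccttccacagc
Cidec start 1: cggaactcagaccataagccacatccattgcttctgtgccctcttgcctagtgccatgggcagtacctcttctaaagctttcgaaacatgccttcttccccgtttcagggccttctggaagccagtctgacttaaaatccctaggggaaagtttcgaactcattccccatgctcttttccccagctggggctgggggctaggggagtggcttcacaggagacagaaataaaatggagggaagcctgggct
Cidec start 2: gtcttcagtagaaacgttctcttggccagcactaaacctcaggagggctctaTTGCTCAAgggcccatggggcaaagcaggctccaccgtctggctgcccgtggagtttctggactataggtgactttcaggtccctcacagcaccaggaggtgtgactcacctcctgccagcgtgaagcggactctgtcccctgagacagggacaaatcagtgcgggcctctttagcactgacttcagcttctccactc
Pck1: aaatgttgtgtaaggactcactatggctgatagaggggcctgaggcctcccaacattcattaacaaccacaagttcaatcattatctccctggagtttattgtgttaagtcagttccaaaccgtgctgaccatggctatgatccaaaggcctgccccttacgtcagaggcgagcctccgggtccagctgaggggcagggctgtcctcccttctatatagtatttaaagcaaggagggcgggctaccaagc
Cfd: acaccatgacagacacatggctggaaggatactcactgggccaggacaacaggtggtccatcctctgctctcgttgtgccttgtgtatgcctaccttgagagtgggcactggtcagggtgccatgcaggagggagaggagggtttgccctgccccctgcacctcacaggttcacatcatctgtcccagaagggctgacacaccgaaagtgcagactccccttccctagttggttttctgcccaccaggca
Plin1 held 2 matches to TTGCNNAA, which begin 187 and 58 bases before the start, and the second Cidec start held 1, which begins 198 bases before it. The first Cidec start, Pck1 and Cfd held 0 matches, and so did Plin4. Among 32851 RefSeq promoter windows of the same length 9.56% held at least 1 match. The nuclear receptor core AGGTCA, present in 14.0% of all windows, and the DR1 element, a direct repeat of that core with a single base between the copies, present in 0.0335%, had 0 matches in each of these windows. The E-box CANNTG was found in Plin1 (2 matches), the first Cidec start (1), Pck1 (1), Cfd (3) and Plin4 (1), against 66.2% of all windows. Of the hypoxia response cores ACGTG (16.6% of windows, at times inside an E-box) and GCGTG (28.2%), 1 match to GCGTG was found, at the second Cidec start. A match describes letters in this window and does not show that a factor binds.

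Reads of 5 markers, Plin1, Cidec, Pck1, Cfd and Car3, were nearly missing in the libraries labelled KO. Together they had 102, 303 and 154 reads in C 1, C 2 and C 3, and 1 read in each KO library. In DKO they had 684, 144 and 21 reads, so that the 3 DKO libraries spanned a wider range than the C libraries. The other 2 markers were abundant in every library: Fabp4 was lower in KO than in C and DKO, and the Plin4 libraries of the groups overlapped. In bulk tissue, fewer fat cells and less RNA per fat cell cannot be told apart.

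**Figure D1:**
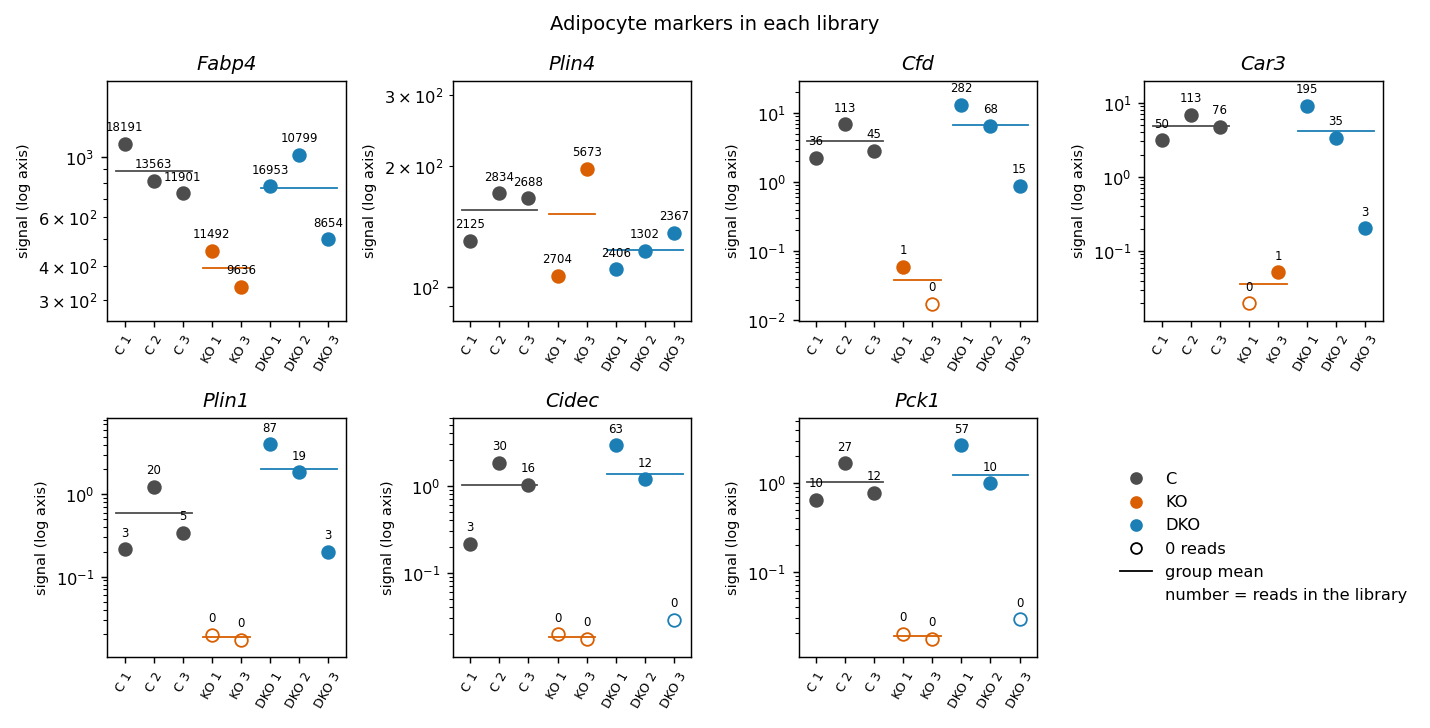
Signal of the 7 adipocyte markers in each library (log axis), with the number of reads printed at each point, open circles at 0 reads and a line at each group's mean. Plin1, Cidec and Pck1 had 0 reads in both KO libraries, and DKO 3 had 3, 0 and 0 reads of them.

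Among secreted proteins, Cfd encodes adipsin, a serine protease that adipocytes release and that acts in the alternative complement pathway (ENSMUSG00000061780, chromosome 10, 79890853 to 79892655, GRCm38). Its signal was 2.23, 6.84 and 2.81 in C 1, C 2 and C 3 (36, 113 and 45 reads), 0.0590 and 0.0173 in KO 1 and KO 3 (1 and 0 reads), and 12.99, 6.46 and 0.893 in DKO 1, DKO 2 and DKO 3 (282, 68 and 15 reads). Both KO libraries lay below all other libraries, and DKO 1 and DKO 3 were the highest and the lowest of the remaining 6. Cfd fell by 2.14 on the log2(signal + 1) scale in KO against C (SE 0.64; limma, adjusted p = 0.0431). On pooled reads the ratio of C to KO was 214.3, with a 95% exact interval of 38.0 to 8507 that covers counting error only. That ratio was 135.1 without C 2 and 100.4 without KO 3, and without KO 1 it was at least 37.98. In DKO against KO, Cfd rose by 2.49 (SE 0.64; limma, adjusted p = 0.0270). DKO and C overlapped, with a difference of 0.34 (SE 0.57; limma, adjusted p = 0.88). Both calls rest on few libraries. The KO against C call ended when any single C or KO library was left out (limma, adjusted p = 0.0641 to 0.205), with the replicate number as a block (limma, adjusted p = 0.0630) and with a pseudocount of 4 (limma, adjusted p = 0.136). The DKO against KO call ended without DKO 2 (limma, adjusted p = 0.0624), KO 1 (0.124) or KO 3 (0.170), and with a pseudocount of 4 (0.0616).

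The lipid droplet genes showed the same division between libraries at lower levels. Plin1 encodes perilipin 1, which coats the adipocyte's droplet and gates lipolysis (ENSMUSG00000030546, chromosome 7, 79720218 to 79732903). It had 3, 20 and 5 reads in C, 0 and 0 in KO, and 87, 19 and 3 in DKO, with signals of 0.214, 1.24 and 0.340 in C and 4.02, 1.84 and 0.202 in DKO. Cidec encodes a protein that fuses lipid droplets into the single droplet of white fat (ENSMUSG00000030278, chromosome 6, 113424634 to 113435760). It had 3, 30 and 16 reads in C, 0 and 0 in KO, and 63, 12 and 0 in DKO. DKO 3 thus had no Cidec reads, like the KO libraries, while DKO 1 had the most. Against a floor of 3 reads over the KO group, pooled Plin1 was at least 10.3-fold higher in C and at least 39.7-fold higher in DKO than in KO. For Cidec the values were at least 18.04-fold in C and at least 27.3-fold in DKO. These bounds rest on single libraries: without C 2 the bounds in C were 4.45-fold for Plin1 and 10.6-fold for Cidec, and without DKO 1 those in DKO were 14.2-fold and 7.76-fold. With 1 KO library in place of 2, which leaves fewer reads behind the floor, the bounds were 4.83-fold to 5.48-fold (Plin1) and 8.45-fold to 9.59-fold (Cidec) in C, and 18.6-fold to 21.1-fold and 12.8-fold to 14.5-fold in DKO. Leaving out DKO 3 raised the DKO bounds to 59.2-fold for Plin1 and 41.9-fold for Cidec.

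Neither gene passed the test over all genes in any comparison on the log2(signal + 1) scale, which understates changes at such levels. For Plin1 the differences were -0.59 (SE 0.48; limma, adjusted p = 0.45) in KO against C and 1.34 (SE 0.48; limma, adjusted p = 0.0925) in DKO against KO. For Cidec they were -0.91 (SE 0.48; limma, adjusted p = 0.24) and 1.02 (SE 0.48; limma, adjusted p = 0.18). Without DKO 3, Plin1 (limma, adjusted p = 0.00826) and Cidec (limma, adjusted p = 0.0323) passed in DKO against KO. With DESeq2 on the recovered reads both also passed in KO against C (Plin1, adjusted p = 0.0170; Cidec, adjusted p = 0.0327).

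Plin4 did not follow the other droplet genes (ENSMUSG00000002831, chromosome 17, 56100591 to 56109803). It encodes perilipin 4, which coats nascent droplets in adipocytes and is also made in heart and skeletal muscle. Its signal was 130.1, 170.8 and 166.1 in C, 106.5 and 196.7 in KO, and 110.6, 122.9 and 136.4 in DKO. The 2 KO libraries were the lowest and the highest of all 8, so the groups overlapped. The differences were -0.09 (SE 0.24; limma, adjusted p = 0.83) in KO against C, -0.33 (SE 0.22; limma, adjusted p = 0.69) in DKO against C and -0.23 (SE 0.24; limma, adjusted p = 0.56) in DKO against KO. The sign in KO against C turned to 0.048 under quantile normalisation.

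Of the enzymes, Pck1 encodes cytosolic phosphoenolpyruvate carboxykinase, which makes glycerol backbone for triglyceride in fat and glucose in liver (ENSMUSG00000027513, chromosome 2, 173153048 to 173159273). It had 10, 27 and 12 reads in C, 0 and 0 in KO, and 57, 10 and 0 in DKO, with signals of 0.643, 1.66 and 0.772 in C. As with Cidec, DKO 1 had the most reads and DKO 3 had none. Pooled Pck1 was at least 18.04-fold higher in C and at least 24.4-fold higher in DKO than the floor of 3 reads in KO. The bound in C was 12.2-fold without C 2 and 8.45-fold to 9.59-fold with 1 KO library. The bound in DKO was 6.47-fold without DKO 1, 37.4-fold without DKO 3 and 11.4-fold to 12.96-fold with 1 KO library. On the log2(signal + 1) scale the differences were -0.96 (SE 0.43; limma, adjusted p = 0.16) in KO against C and 0.94 (SE 0.43; limma, adjusted p = 0.17) in DKO against KO. Pck1 passed in KO against C with edgeR on the recovered reads (adjusted p = 0.0428) and with DESeq2 (adjusted p = 0.0193). Of 9 listed hepatocyte genes, 0 had a row among the genes analysed here. The adipocyte markers Adipoq, Retn and Lep lacked a row too, no kidney genes were listed, and the source of the Pck1 reads was not tested. Pck2, the mitochondrial enzyme of the same reaction, was 23.03 ± 3.74 (SD, n = 3) in C, 19.8 ± 2.002 (SD, n = 2) in KO and 25.8 ± 5.45 (SD, n = 3) in DKO.

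Car3 encodes carbonic anhydrase 3, an abundant cytosolic protein of adipocytes and of slow skeletal muscle fibres (ENSMUSG00000027559, chromosome 3, 14863512 to 14872523). Its signal was 3.09, 6.84 and 4.73 in C (50, 113 and 76 reads), 0.0197 and 0.0520 in KO (0 and 1 reads), and 8.99, 3.35 and 0.202 in DKO (195, 35 and 3 reads). The KO libraries lay below all others, DKO 3 lay next to them, and DKO 1 was the highest. Car3 fell by 2.46 on the log2(signal + 1) scale in KO against C (SE 0.63; limma, adjusted p = 0.0234), and the ratio of C to KO on pooled reads was 264.0, with a 95% exact interval of 46.9 to 10471. The ratio was 140.4 without KO 1 and at least 41.2 without KO 3. That call ended without C 2 (limma, adjusted p = 0.0729), C 3 (0.0656), KO 1 (0.119) or KO 3 (0.139), and with a pseudocount of 4 (0.0506). In DKO against KO the difference was 1.85 (SE 0.63; limma, adjusted p = 0.0791), and without DKO 3 it was 2.67 (limma, adjusted p = 0.002). DKO and C overlapped, with a difference of -0.61 (SE 0.56; limma, adjusted p = 0.77).

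Because Car3 is also a skeletal muscle gene, its level was set beside 14 genes of skeletal fibres. Of these, 11 fell and 1, Casq1, rose in KO against C, where 7.01% and 6.9% of all tested genes did. Over all 14 genes the sum was 343.4, 147.7 and 600.4 in C 1, C 2 and C 3. It was 173.9 and 125.7 in KO 1 and KO 3, and 31.8, 32.6 and 44.3 in DKO. KO 1 thus lay within the range of C, and the DKO libraries were the lowest. Casq1 and Mybpc2 had the highest levels of the list in KO, at 66.9 ± 17.9 and 79.3 ± 15.3, and higher means there than in C. Those 2 genes were then left out on the basis of these values. Without them the sum was 298.4, 83.1 and 542.9 in C 1, C 2 and C 3, 4.25 and 2.98 in KO, and 16.0, 21.05 and 9.85 in DKO. Within C, Car3 was highest in C 2, where the skeletal sum was lowest. DKO 1 had the highest Car3 signal of all libraries with a skeletal sum below that of every C library. Myh4, a fast-fibre myosin, had 0 reads in both KO libraries. Car3 is known from slow fibres, whereas the list holds fast-fibre genes such as Myh4, so its sum may not follow the fibres that make Car3. The part of skeletal fibres in the Car3 difference between KO and C was not tested.

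**Figure D2:**
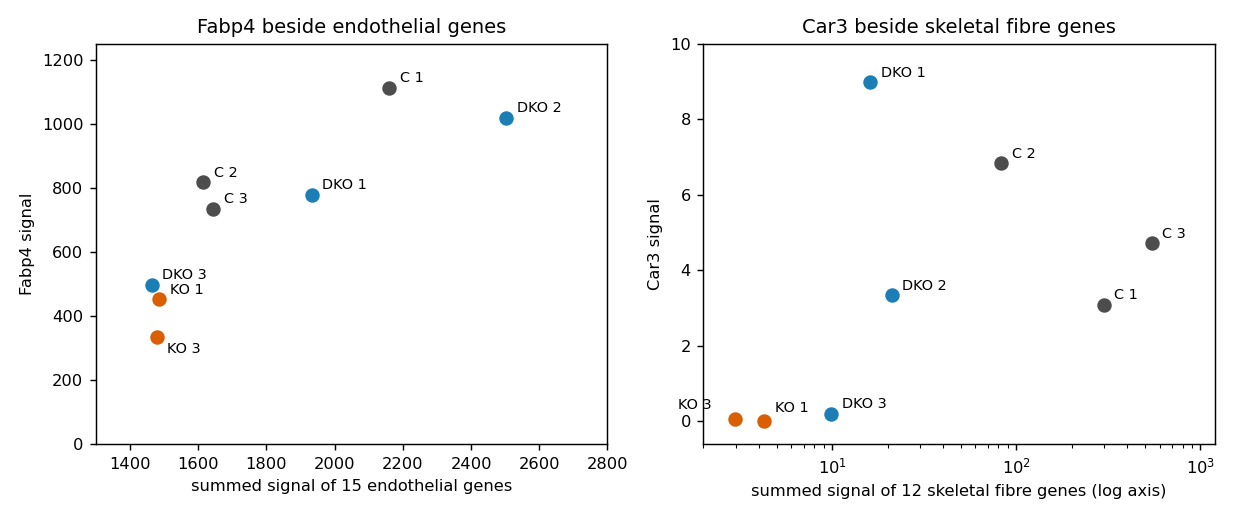
Left, Fabp4 signal against the summed signal of 15 endothelial genes. Right, Car3 signal against the summed signal of 12 of the 14 skeletal fibre genes, without Casq1 and Mybpc2 (log axis), with 1 point per library. Those 2 genes, higher in KO than in C, were left out after their values were seen. Over all 14 genes KO 1 (173.9) lay within the range of C (147.7 to 600.4). Both KO libraries and DKO 3 have endothelial sums between 1463 and 1485, with Fabp4 at 498.6 in DKO 3 and at 452.4 and 334.1 in KO.

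Fabp4 encodes fatty acid binding protein 4, or aP2, which carries fatty acids in adipocytes, macrophages and the capillary endothelium of the heart (ENSMUSG00000062515, chromosome 3, 10204088 to 10208576). It was the most abundant of the markers by far, with signals of 1114, 817.5 and 735.3 in C, 452.4 and 334.1 in KO, and 779.3, 1019 and 498.6 in DKO. Both KO libraries lay below the other 6, and DKO 3 was the lowest of those. Fabp4 fell by 1.17 on the log2(signal + 1) scale in KO against C (SE 0.30; limma, adjusted p = 0.0249), from 888.9 ± 199.1 (SD, n = 3) to 393.2 ± 83.7 (SD, n = 2). The call ended when any single C or KO library was left out (limma, adjusted p = 0.05004 to 0.223) and under quantile normalisation (limma, adjusted p = 0.151). The difference of DKO from KO was 0.92 (SE 0.30; limma, adjusted p = 0.0724), and without DKO 3 it was 1.19 (limma, adjusted p = 0.0174). The difference of DKO from C was -0.25 (SE 0.27; limma, adjusted p = 0.80).

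Markers of endothelium, another known source of Fabp4, summed to less in KO than in C, and to least in DKO 3. The 15 endothelial genes summed to 2159, 1615 and 1644 in C, 1485 and 1478 in KO, and 1932, 2502 and 1463 in DKO. Of the 15, 12 had lower and 3 had higher means in KO than in C. The junction gene Pecam1 was 144.4 ± 32.9 in C and 195.6 ± 9.95 in KO, with both KO libraries above every C library (limma, adjusted p = 0.28), and Cdh5 and Emcn were the other 2. Of the 15, 2 fell in KO against C, where 7.01% of all tested genes were called lower. They were Gpihbp1, the capillary anchor of lipoprotein lipase (130.1 ± 28.1 in C, 67.1 ± 2.005 in KO; limma, adjusted p = 0.0156), and the tight junction gene Cldn5 (83.9 ± 25.9 in C, 39.5 ± 8.47 in KO; limma, adjusted p = 0.0407). The Gpihbp1 call ended without C 1, KO 1 or KO 3 (limma, adjusted p up to 0.105), and the Cldn5 call without C 1, C 3, KO 1 or KO 3 (limma, adjusted p up to 0.291) and under quantile normalisation (0.0622). Fabp4 amounted to 51.6%, 50.6% and 44.7% of the endothelial sum in C, 30.5% and 22.6% in KO, and 40.3%, 40.7% and 34.1% in DKO. Relative to these genes, too, both KO libraries were the lowest of the 8. The part of endothelial RNA in the Fabp4 difference was not tested.

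Counted over the markers, 3 of 7 passed as lower in KO against C (Fabp4, Cfd and Car3) and 0 as higher, where 7.01% of 13544 tested genes were called lower and 6.9% higher (13.9% in all). At an unadjusted p under 0.05 there were 4 of 7, against 29.1% of all genes. The median difference of the 7 was -0.96, against 0.01 over all tested genes. In 6 of 7 markers the KO libraries lay below every C library without overlap, as they did for 26.5% of tested genes, and 0 lay above without overlap, as 27.7% did. Plin1, Cidec, Pck1, Cfd and Car3 passed the minimum of a signal of 1 in at least 2 libraries through C and DKO libraries, so these counts are a description and do not support a difference. The count was 0 without C 2, C 3, KO 1 or KO 3, 1 without C 1, and 6 with DESeq2 on recovered reads.

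In DKO against C, 0 of 7 markers passed limma, 0 had an unadjusted p under 0.05, and 0 passed with edgeR or DESeq2. Over all genes limma called 0.155% in either direction (0.0738% higher and 0.0812% lower), and 8.5% had an unadjusted p under 0.05. The median difference was -0.02, against 0.01 over all tested genes, and the libraries of DKO and C overlapped in all 7 markers, where 6.48% of genes lay higher and 7.28% lower without overlap. In DKO against KO, 1 marker, Cfd, passed as higher and 0 as lower, where 6.08% of genes were called higher and 5.73% lower (11.8% in all). At an unadjusted p under 0.05 there were 5 of 7, against 28.9% of all genes. The median difference was 1.02, and in 4 of 7 markers (Fabp4, Plin1, Cfd and Car3) the DKO libraries lay above the KO libraries without overlap, as they did for 20.3% of genes, and 0 lay below, as 21.2% did. The count depended on single libraries: it was 6 without DKO 3, and 0 without DKO 2, KO 1 or KO 3. It was 5 with edgeR and 6 with DESeq2 on recovered reads. Here too, Plin1, Cidec, Pck1, Cfd and Car3 passed the minimum signal through C and DKO libraries. The counts in DKO against KO are therefore a description and do not support a difference. The comparisons share libraries and are not independent of each other.

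**Figure D3:**
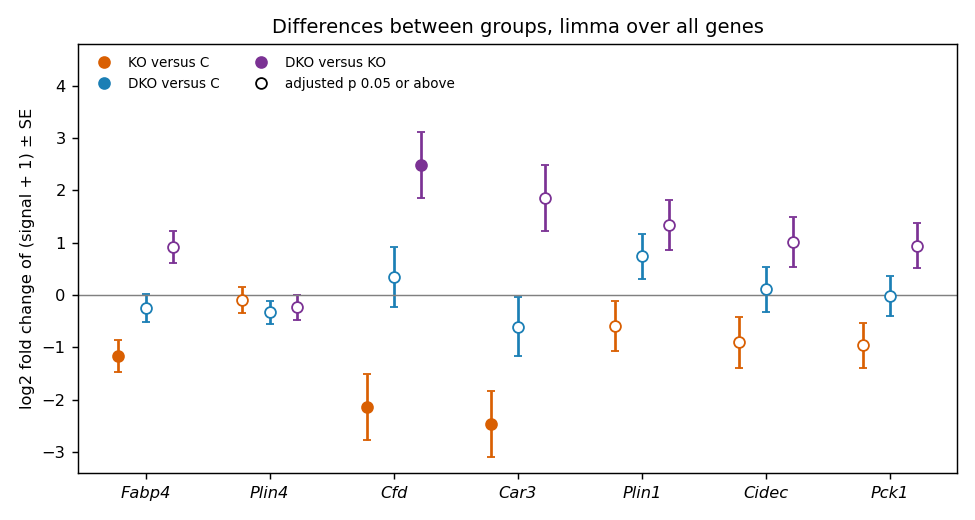
Difference between groups on the log2(signal + 1) scale with its standard error from limma, for 7 markers in 3 comparisons. Filled points had an adjusted p under 0.05: Fabp4, Cfd and Car3 in KO against C, and Cfd in DKO against KO.

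The 5 low-level markers also ordered the libraries within a group alike. In C, each of Plin1, Cidec, Pck1, Cfd and Car3 was highest in C 2, then C 3, then C 1, and in DKO each was highest in DKO 1, then DKO 2, then DKO 3. Reads in C 3 and C 1 were 5 and 3 for Plin1, 12 and 10 for Pck1, 45 and 36 for Cfd, 16 and 3 for Cidec, and 76 and 50 for Car3. The step from C 3 to C 1 thus rested on few reads in Plin1 and Pck1. Of 13537 tested genes with distinct names, 14.6% had the C order, 14.5% had the DKO order and 1.45% had both. The orders were read from these markers first, so these shares are a description and not a test. Plin4 had the same order in C and the opposite one in DKO, and Fabp4 had neither. Set beside these, 7 epicardial and mesothelial genes summed to 17.2, 19.6 and 12.6 in C, 41.9 and 39.7 in KO and 27.4, 26.4 and 15.6 in DKO. In KO these sums were the highest of all libraries, while those of the 5 markers were the lowest. The 7 genes were not alike: 6 had differences above 0 in KO against C. Upk3b had a lower mean in KO (0.680) than in C (0.979). Msln had 0 and 58 reads in KO 1 and KO 3. Within C both were highest in C 2, as the 5 markers were, with 36 reads of Upk3b and 18 of Msln. The 10 fibroblast genes summed to 1925, 1480 and 1133 in C, 2284 and 1752 in KO, and 3442, 2326 and 1338 in DKO. Their DKO libraries thus had the order of the 5 markers, their C libraries did not, and the KO sums lay within the range of DKO. Gsn alone gave 2201, 1358 and 782.3 of the sums in DKO, and 742.9 and 560.6 of those in KO. The place of KO 1 within the range of DKO thus rested on Gsn. Of the 10, 4 collagen and matrix genes (Col1a1, Col1a2, Col3a1 and Mfap5) rose in KO against C and fell in DKO against KO. Over all tested genes 6.9% were called higher in KO against C and 5.73% lower in DKO against KO. The part of fibroblasts in the values of the markers was not tested.

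The genes most like Plin1 were sought by the root mean square difference over the 8 libraries between log2(signal + 1) profiles centred on their means. Among 13536 other genes Cidec ranked 4 with 0.31 and Pck1 ranked 5 with 0.34, against a median of 0.81. The other markers lay farther off, with 0.66 for Cfd (rank 919), 0.68 for Fabp4, 0.82 for Car3 and 0.92 for Plin4. Cfd and Car3 spanned a wider range than Plin1, and Fabp4 and Plin4 a narrower one. The 8 nearest genes outside the markers were C3, Vit, Cyp2e1, Myoc, Tmprss13, Gpr37l1, Kcna6 and Gfra3, with 0.26 to 0.37. Complement component gene C3 had signals of 40.3, 39.99 and 30.9 in C, 23.1 and 20.9 in KO, and 113.0, 71.4 and 35.0 in DKO. Cyp2e1, which encodes a cytochrome P450 enzyme, had 7, 48 and 13 reads in C, 4 and 2 in KO, and 104, 30 and 0 in DKO, so it shared the high C 2 and the missing reads in DKO 3. The other 7 genes shared the high DKO 1 and DKO 2, and C 2 was not their highest C library except in Vit.

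**Figure D4:**
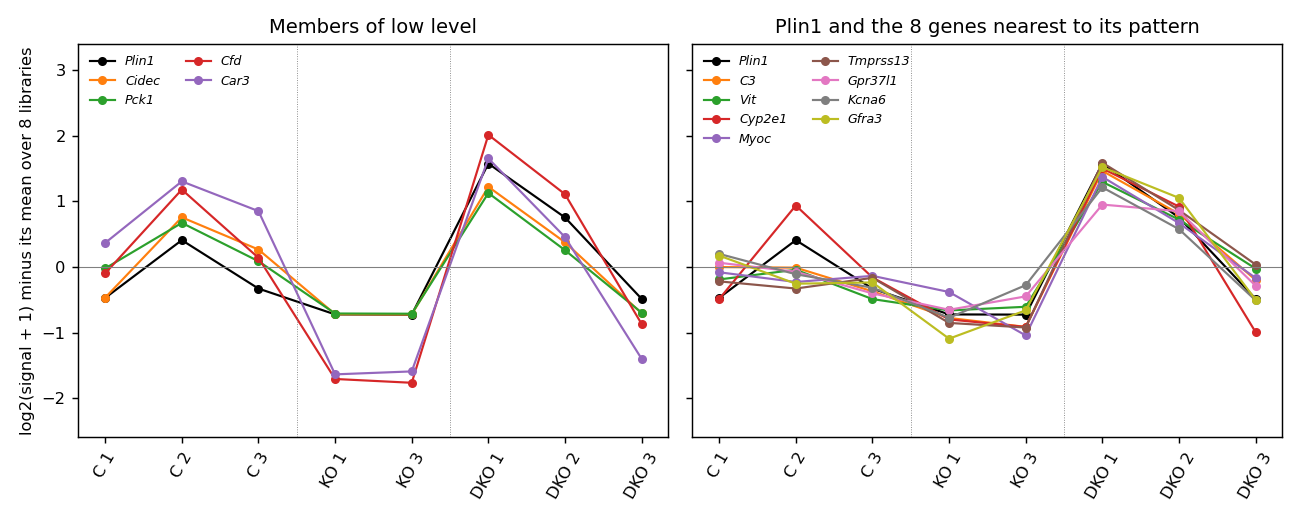
Log2(signal + 1) minus its mean over the 8 libraries, for the 5 low-level markers (left) and for Plin1 with the 8 genes nearest to its pattern (right); lines join the libraries of 1 gene. The 5 markers peak in C 2 and DKO 1 and are lowest in KO 1, KO 3 and DKO 3, whereas of the 8 nearest genes Cyp2e1 has the clearest peak in C 2.

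The markers were set beside relatives in the same gene families as mean signal per kb of the principal transcript. Fabp3, the heart fatty acid binding protein, was at 4378 per kb in C, against 992.0 for Fabp4 and 53.5 for Fabp5. Plin5, the perilipin of oxidative muscle, was at 71.3 per kb in C, Plin4 at 27.05, Plin2 at 26.5 and Plin3 at 17.04, against 0.212 for Plin1. Cidea was at 28.2 per kb in C, against 0.595 for Cidec and 0.664 for Cideb. Among carbonic anhydrases Car14 (38.2 per kb) and Car4 (28.8), a membrane enzyme of capillaries, lay above Car3 (2.91), as did Car7 (5.62) and Car8 (5.08), while Car2, Car11, Car15, Car5b and Car13 (0.154 to 2.18) lay below it. Plin5 fell in KO, from 141.6 ± 13.1 to 73.3 ± 21.2 in signal (limma, adjusted p = 0.0422), a call that ended when any single C or KO library was left out (limma, adjusted p = 0.0803 to 0.305) and under quantile normalisation (0.0568). Car4 fell from 36.1 ± 8.75 to 15.4 ± 2.16 (limma, adjusted p = 0.00916), and its call ended without KO 1 (0.0858) or KO 3 (0.0547).

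**Figure D5:**
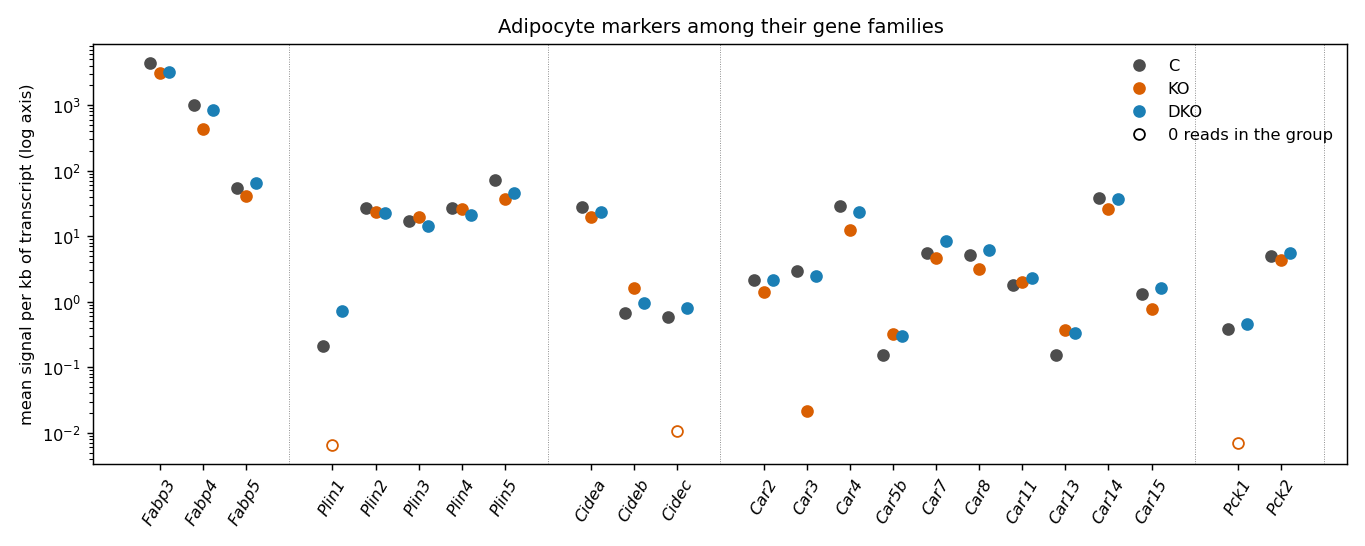
Mean signal per kb of transcript (log axis) for the markers and their family members, by group, with open circles where a group had 0 reads. Plin1, Cidec and Pck1 had 0 reads in KO, and Fabp4 lies between Fabp3 and Fabp5 in each group.

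Beyond the markers, regulators of fat cell formation had calls in both directions. Of 13 tested adipogenic transcription factor genes 2 fell and 1 rose in KO against C, with a median difference of 0.26. Over all tested genes 7.01% were called lower and 6.9% higher there, and 5.73% and 6.08% in DKO against KO. Pparg, the main switch of adipocyte formation, fell from 12.5 ± 3.49 in C to 6.20 ± 1.06 in KO (limma, adjusted p = 0.0482), and was 8.91 ± 2.82 in DKO. Its call ended when any single C or KO library was left out (limma, adjusted p = 0.0681 to 0.259), with a pseudocount of 4 (0.0517) and with the replicate block (0.0788). Rxrg, a retinoid X receptor gene of striated muscle, fell from 59.1 ± 1.66 to 30.2 ± 4.15 (limma, adjusted p = 0.0074; 0.078 without KO 1). Ebf1, which also acts in other mesenchymal cells, rose from 4.75 ± 1.15 to 9.71 ± 1.44 (limma, adjusted p = 0.0437), a call that ended without any single C or KO library (up to 0.241), with a pseudocount of 4 (0.0533) and under quantile normalisation (0.0517). In DKO against KO 1 of the 13 rose and 1 fell, and Cebpb, the one that fell, was 34.6 ± 4.75 in DKO and 107.0 ± 63.7 in KO (limma, adjusted p = 0.0104; 0.115 without KO 3).

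Lipid droplet and lipolysis genes held more calls. Of 16 tested, 6 fell and 0 rose in KO against C, where 7.01% of all tested genes were called lower and 6.9% higher. The median difference of the 16 was -0.35. That of the 12 cardiomyocyte genes was -0.39 in the same comparison, with 1 called lower and 0 higher. The part of heart muscle RNA in these calls was not tested. Aqp7, the glycerol channel of adipocytes that heart muscle also makes, had signals of 52.7, 45.4 and 47.2 in C, 15.1 and 12.2 in KO, and 46.6, 55.4 and 26.4 in DKO. It fell by 1.76 on the log2 scale in KO against C (SE 0.26; limma, adjusted p = 0.00159). It was also higher in DKO than in KO (limma, adjusted p = 0.00389), a call that ended without KO 3, and DKO 3 was its lowest DKO library. Lipe, encoding hormone-sensitive lipase, fell from 95.8 ± 4.11 to 45.4 ± 3.35 (limma, adjusted p = 0.00411) and passed in DKO against KO (79.4 ± 17.4; limma, adjusted p = 0.0210), but not there with the replicate block (0.0514), in a fit of the 2 groups alone (0.0796), or without KO 1 (0.142) or KO 3 (0.109). Fitm1 fell from 162.0 ± 4.48 to 75.6 ± 1.46 (limma, adjusted p = 0.0097; 0.0698 without KO 1 and 0.081 without KO 3). The other 3 that fell were Pnpla2, Mgll and Plin5. Of 15 tested triglyceride and fatty acid synthesis genes 0 passed limma in each of the 3 comparisons, with medians of -0.01, 0.15 and 0.26 in KO against C, DKO against C and DKO against KO.

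Among 13 tested genes of adipokines and their receptors 4 rose and 2 fell in KO against C, where 6.9% and 7.01% of all tested genes did. Retnla, a relative of the resistin gene Retn that is made by macrophages and adipose tissue, had signals of 4.19, 2.20 and 3.61 in C, 0.453 and 0.225 in KO, and 8.48, 5.80 and 4.47 in DKO. The KO libraries lay below all others, and DKO lay above C without overlap, but the difference of DKO from C, 0.73 (SE 0.25), did not pass (limma, adjusted p = 0.50). In KO against C its log2 difference was -1.67 (SE 0.28; limma, adjusted p = 0.00301), and in DKO against KO it was 2.40 (SE 0.28; limma, adjusted p = 0.000583). Its DKO libraries had the same order as those of the 5 low-level markers, an order that 14.5% of tested genes had. Among C, Retnla was lowest in C 2, where those markers were highest. Beside it, the 12 macrophage genes summed to 337.0 to 369.7 in C, 475.7 to 478.1 in KO and 381.9 to 482.1 in DKO. Angptl4, an inhibitor of lipoprotein lipase, fell from 90.9 ± 18.7 to 23.9 ± 2.46 (limma, adjusted p = 0.00629; 0.0762 without KO 3). Apln, encoding the peptide apelin, rose from 9.79 ± 0.783 to 26.5 ± 2.22 (limma, adjusted p = 0.000824) and was 12.2 ± 1.55 in DKO.

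Of 10 tested further genes of white adipocytes, 1 fell and 0 rose in KO against C, where 7.01% and 6.9% of all tested genes did. The gene that fell was Ces1d, a carboxylesterase gene of adipocyte lipid droplets, with signals of 74.6, 75.4 and 78.1 in C, 13.7 and 23.2 in KO, and 75.5, 39.8 and 70.4 in DKO. The log2 difference was -2.03 in KO against C (SE 0.27; limma, adjusted p = 0.00103) and 1.68 in DKO against KO (limma, adjusted p = 0.00324), and DKO 3 was not low. Ces1d reads can be split uncertainly among related carboxylesterase genes.

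In the brown and beige fat list 7 of 14 genes were tested; Ucp1, which defines brown fat, was not analysed here. Dio2, encoding the deiodinase that activates thyroid hormone, rose from 1.596 ± 0.373 in C to 16.05 ± 8.84 in KO (limma, adjusted p = 0.00104), was 1.22 ± 0.867 in DKO, and is not specific to fat. Cox8b, a cytochrome c oxidase subunit gene of brown fat and striated muscle, fell from 594.5 ± 83.1 to 249.9 ± 43.5 (limma, adjusted p = 0.0045; 0.0764 without KO 3). Pm20d1, encoding a secreted enzyme of thermogenic fat that forms N-acyl amino acids, was 4.32, 5.03 and 5.72 in C, 3.96 and 3.93 in KO, and 11.8, 12.98 and 12.01 in DKO. It rose in DKO against C by 1.15 (limma, adjusted p = 0.0126; 0.087 without C 1) and in DKO against KO by 1.42 (limma, adjusted p = 0.000809). Its 3 DKO libraries were close together, unlike those of the 5 low-level markers. Of 9 tested genes of adipocyte progenitors, which fibroblasts also express, 3 rose and 0 fell in KO against C (Pi16, Cd34 and Ccn5). In that comparison 6.9% of all tested genes were called higher and 7.01% lower.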

How the data were processed

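Poly(A) RNA of 8 ventricular libraries was sequenced (labels' protocols). For the tools, the submitters' processing notes give cutadapt, RSEM 1.3.1 and limma, and the build GRCm38, with no roles; the annotation and the use of strand were not found in those notes or labels. The table deposited by the authors holds a normalised signal for 13677 genes. From its values, each signal is reads plus 0.5, divided by an effective library size and scaled to 1000000, and whole reads came out for 100% of values (tolerance 0.001). Testing used limma 3.58.1 in R 4.3.3, on log2(signal + 1), for the 13544 genes that reached a signal of 1 in 2 or more libraries. The model had 3 group means, a trend of the variance with level, and 5 residual degrees of freedom. The Benjamini-Hochberg method adjusted p-values within each comparison, and 0.05 was the threshold. Counting intervals are exact binomial, and a group with 0 reads was set to a floor of 3 reads over the group; both cover counting error only.

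Alternatives were pseudocounts of 0.25 and 4, no filter or a signal of 1 in 7 libraries, median centring, quantile normalisation, edgeR 4.0.16 and DESeq2 1.42.0 on the recovered reads, fits of 2 groups, a replicate block and leaving out each library. The fit was run on data simulated for KO against C alone, with the same rule for the spread in each group. It recovered 81% of genes changed by 1 on the log2 scale and 100% of those changed by 2. Of the genes called, 3.21% were false. The DKO comparisons and the uneven spread of the real libraries were not simulated. Coordinates and principal transcript lengths come from GENCODE M21 (GRCm38), and promoters from RefSeq (GRCm38.p6), matched for 5 of the 7 markers analysed (Plin1, Plin4, Cidec, Pck1 and Cfd). Named genes are the 10 markers, their families, the 8 genes most like Plin1 (the rule's next choice after Adipoq), and from each other list up to 3 called genes with the smallest p per comparison, of which some are given. Names outside that rule were given to complete a count of called genes or a sum, after their values were seen. Members and lists were chosen with earlier results of these data known.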

Additional observations from a re-analysis of the deposited data

How the results depend on the processing

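Over 47 pairs of a gene and a comparison, 717 of 821 values under the alternatives kept their direction and side of the threshold, 72 lost a call, 20 gained one and 12 changed sign. The count of markers called in KO against C, 3, became 6 with DESeq2, 1 with a pseudocount of 4 and 1 with a signal of at least 1 in 7 libraries, where 2 markers were tested; it was 0 to 3 when single libraries were left out. In DKO against KO the count of 1 became 6 with DESeq2, 5 with edgeR, 2 with a pseudocount of 0.25, 0 with a pseudocount of 4 and 0 under the 7-library filter, and was 0 to 6 when single libraries were left out. It was 0 in DKO against C under each alternative. Over all genes, the 21 calls in DKO against C became 69 with DESeq2 and 10 under the 7-library filter (4 to 90 leaving out single libraries). The 1599 in DKO against KO became 730 with only the 2 groups compared (310 to 1989), and the 1883 in KO against C became 3606 (416 to 2973). The cause was not tested, except that the 7-library filter leaves fewer genes. Where KO kept 1 library, that library is assumed to vary like the other groups.

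Signs that changed belonged to differences that were not called. For Pck1 in DKO against C, -0.02 became 0.23 with DESeq2, 0.30 with edgeR and 0.031 with a pseudocount of 4. For Plin4 in KO against C, -0.09 became 0.048 under quantile normalisation. When single libraries were left out, differences in DKO against C ranged from -1.31 to 0.21 for Car3, -0.29 to 1.15 for Cfd, -0.35 to 0.61 for Cidec, -0.49 to 0.027 for Fabp4 and -0.15 to 0.45 for Pck1. Those of Plin4 ranged from -0.53 to 0.35 in KO against C and from -0.67 to 0.20 in DKO against KO. Pck1 passed the filter in 6 of these 8 fits.

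Same-numbered libraries of different groups deviated from their group means with correlations of -0.274 to 0.218 over 7 pairs. For libraries of unlike number the correlations were -0.363 to 0.212 over 14 pairs, so the ranges overlapped. The pairs share libraries, and the deviations of the KO libraries mirror each other. These correlations therefore cannot decide whether the numbers pair the samples. With the replicate block 2 markers were called in KO against C, 0 in DKO against C and 1 in DKO against KO, and 1794, 21 and 1269 genes in all. Depth limits Plin1, Cidec and Pck1 most, with at most 87 reads in a library. The pooled ratios and bounds without single libraries were added after the data were seen.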
